A study of Homo sapiens with 12 samples.

Results

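N6-methyladenosine (m6A) regions lying wholly within the 3′ untranslated region (3′ UTR) of an mRNA were described in trastuzumab-resistant and trastuzumab-sensitive BT474 cells. A region counted as a member where the authors' annotation placed it in the 3′ UTR and in no other part of the transcript, with the mitochondrial genome left out. By that rule, 5079 of the 17290 regions that the authors compared between the lines were members. In the peak lists of single libraries, the members numbered 9058, 8728 and 8863 in the resistant libraries and 8226, 8096 and 7383 in the sensitive libraries, 50354 of 178732 listed peaks in all. BT474 is a long-established line from a human breast carcinoma that carries many copies of ERBB2, the gene of the receptor that the antibody trastuzumab (Herceptin) binds. BT474.TtzmR, labelled as resistant cells on the BT474 background, was set against BT474, labelled as sensitive cells. Both were grown in DMEM with fetal bovine serum. The labels do not say whether the resistant line is a clone or whether trastuzumab was in the medium. Each line gave 3 pull-down libraries, made from RNA fragments bound by an antibody against m6A, and 3 input libraries. Nothing states that replicates came from separate cultures, so the p-values reflect only how far these libraries scatter, which may be technical scatter. Read depth per library is unknown. Each library came from a whole culture, so fewer cells carrying a mark and fewer marked molecules per cell cannot be told apart, and neither can m6A and transcript level where no input counts were used.

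m6A is placed on nascent mRNA by a methyltransferase complex built around METTL3 and METTL14, can be removed by FTO and ALKBH5, and is bound by YTH-domain proteins. In many cell types it clusters around the stop codon and along the 3′ UTR, the part of an mRNA that also carries microRNA sites, binding sites of stability factors and the signals for cleavage and polyadenylation. The YTHDF readers are best known for promoting decay of the mRNAs they bind. Of the marker genes of luminal epithelium, 12 of 12 had a peak of any class in at least 1 library, 8 of them in all 6 libraries. Of 6 fibroblast markers 1 had a peak, the collagen gene COL1A1, in all 6 libraries, and 0 of 5 leukocyte and 0 of 3 endothelial markers did. Only listed peaks were looked at, without expression values. An expressed gene without m6A would have no peak, so these counts do not establish the cell type.

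Peaks of the 3′ UTR were short, almost always within 1 exon, and more often very highly enriched than coding or stop-spanning peaks. They were set against peaks within the coding sequence and against stop-spanning peaks, which the authors annotated to both coding sequence and 3′ UTR. Widths, enrichments and shares of peaks were taken over rows as listed, 1 per isoform, so genes with more isoforms weigh more. In resistant library 1, for instance, 9058 3′ UTR rows made 4783 merged regions, and 14838 coding rows 5179. These class contrasts were not repeated over merged regions. A 3′ UTR peak had a median of 180 to 181 exonic bases in every library. Coding peaks had medians of 210 to 238 bases and stop-spanning peaks of 357 to 388 bases. The within-library difference in median width averaged -38.3 bases against coding peaks and -186.8 bases against stop-spanning peaks, with 3′ UTR peaks the shorter in 6 of 6 libraries (exact sign-flip permutation test, two-sided, p = 0.03125 each, the smallest that 6 libraries allow). A peak wide enough to reach across the stop codon counts as stop-spanning. The class rule thus favours wide stop-spanning peaks by itself, and that contrast is not a separate property of 3′ UTR peaks. Only 0.849% ± 0.095 of 3′ UTR peaks in resistant and 0.722% ± 0.015 in sensitive libraries (SD, n = 3 each) covered more than 1 exon, whereas coding peaks did so in 50.95% ± 1.16 and 49.2% ± 1.26.

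The fold enrichment, the authors' ratio of pull-down over input for a peak, had a median among 3′ UTR peaks of 3.75, 3.57 and 3.65 in the resistant libraries and of 3.485, 3.65 and 3.54 in the sensitive libraries. These folds are the authors' own, and the class contrasts compared them only within a list. For named genes below, folds of different lists stand side by side as listed, without scaling between libraries. The median of 3′ UTR peaks lay above that of coding peaks by 0.286 and below that of stop-spanning peaks by a difference of -0.265, each in 6 of 6 libraries (exact sign-flip permutation test, p = 0.03125 each). Among peaks with an enrichment of at least 5, the second difference turned round, to 3.205 (exact sign-flip permutation test, p = 0.03125). The upper end stood apart more than the middle. Enrichments above 20, a limit chosen after the values were seen, were found in 6.06%, 6.59% and 6.36% of 3′ UTR peaks of the resistant libraries and in 7.77%, 8.82% and 6.62% of those of the sensitive libraries. Stop-spanning peaks passed that limit in 1.40% to 2.12% and coding peaks in 0.442% to 0.996% of cases, so in each library the 3′ UTR share was the highest of the 3. Peaks touching the 5′ UTR, outside these contrasts, passed it in 2.56% to 6.28% of cases, and in resistant library 1 more often than 3′ UTR peaks. The difference was 6.28 percentage points against coding and 5.27 against stop-spanning peaks (exact sign-flip permutation test, p = 0.03125 each). The lines' differences from each other in these class contrasts had exact permutation p-values of 0.1 or more, the smallest that 3 against 3 libraries can give.

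**Figure D1:**
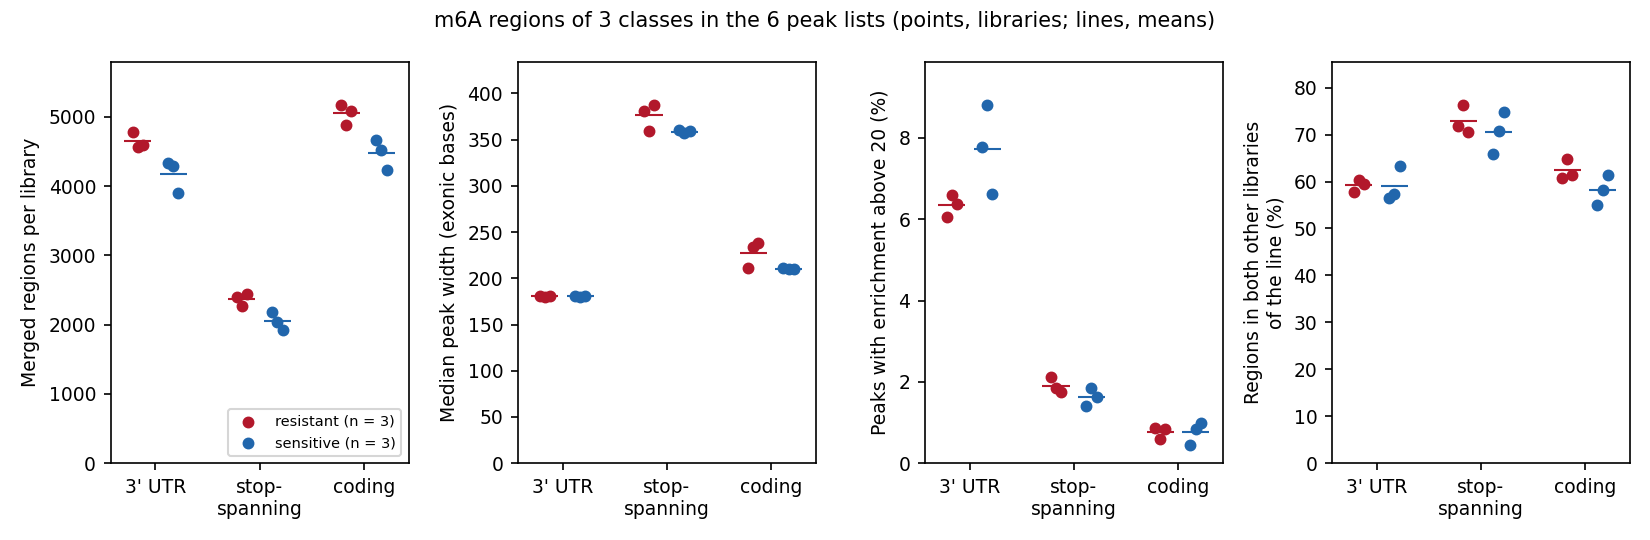
Merged regions per library (rows sharing at least 1 exonic base joined), median peak width in exonic bases, percent of peaks with an enrichment above 20, and percent of regions overlapped in both other libraries of the line, for 3′ UTR, stop-spanning and coding peaks. Points are libraries, 3 resistant in red and 3 sensitive in blue, and lines are means: 3′ UTR peaks are the narrowest, at 180 to 181 bases, and the only of the 3 classes above 6% in the third panel.

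Those high values were not spread evenly. In every library most of them fell on whole multiples of 1 number, a step of 1.378, 1.395 and 1.16 in the resistant libraries and of 1.416, 1.478 and 1.35 in the sensitive libraries. In resistant library 1, for instance, 102 genes had a 3′ UTR peak listed at an enrichment of 13.8 and 102 genes one at 15.2. Of 3′ UTR peaks with an enrichment between 10 and 50, 80.5% ± 0.75 in resistant and 78.0% ± 2.39 in sensitive libraries (SD, n = 3 each) lay within 0.05 of a multiple, a window that covers 6.77% to 8.62% of a step. For stop-spanning peaks the share was 48.8% ± 4.67 and 49.3% ± 6.28, lower than for 3′ UTR peaks in 6 of 6 libraries (exact sign-flip permutation test, p = 0.03125). For coding peaks it was 68.6% ± 7.52 and 77.0% ± 2.73, and the difference did not pass the test (5 of 6 libraries, exact sign-flip permutation test, p = 0.0625). What sets the steps was not tested. Small differences between libraries in such values cannot be told apart from their differences in step. With values on a step left out, and with those of 50 or more kept, enrichments above 20 remained in 1.49% ± 0.74 of 3′ UTR peaks of resistant and 2.16% ± 0.75 of sensitive libraries. The differences then fell to 1.71 percentage points against coding and 1.05 against stop-spanning peaks, still positive in 6 of 6 libraries (exact sign-flip permutation test, p = 0.03125 each).

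**Figure D2:**
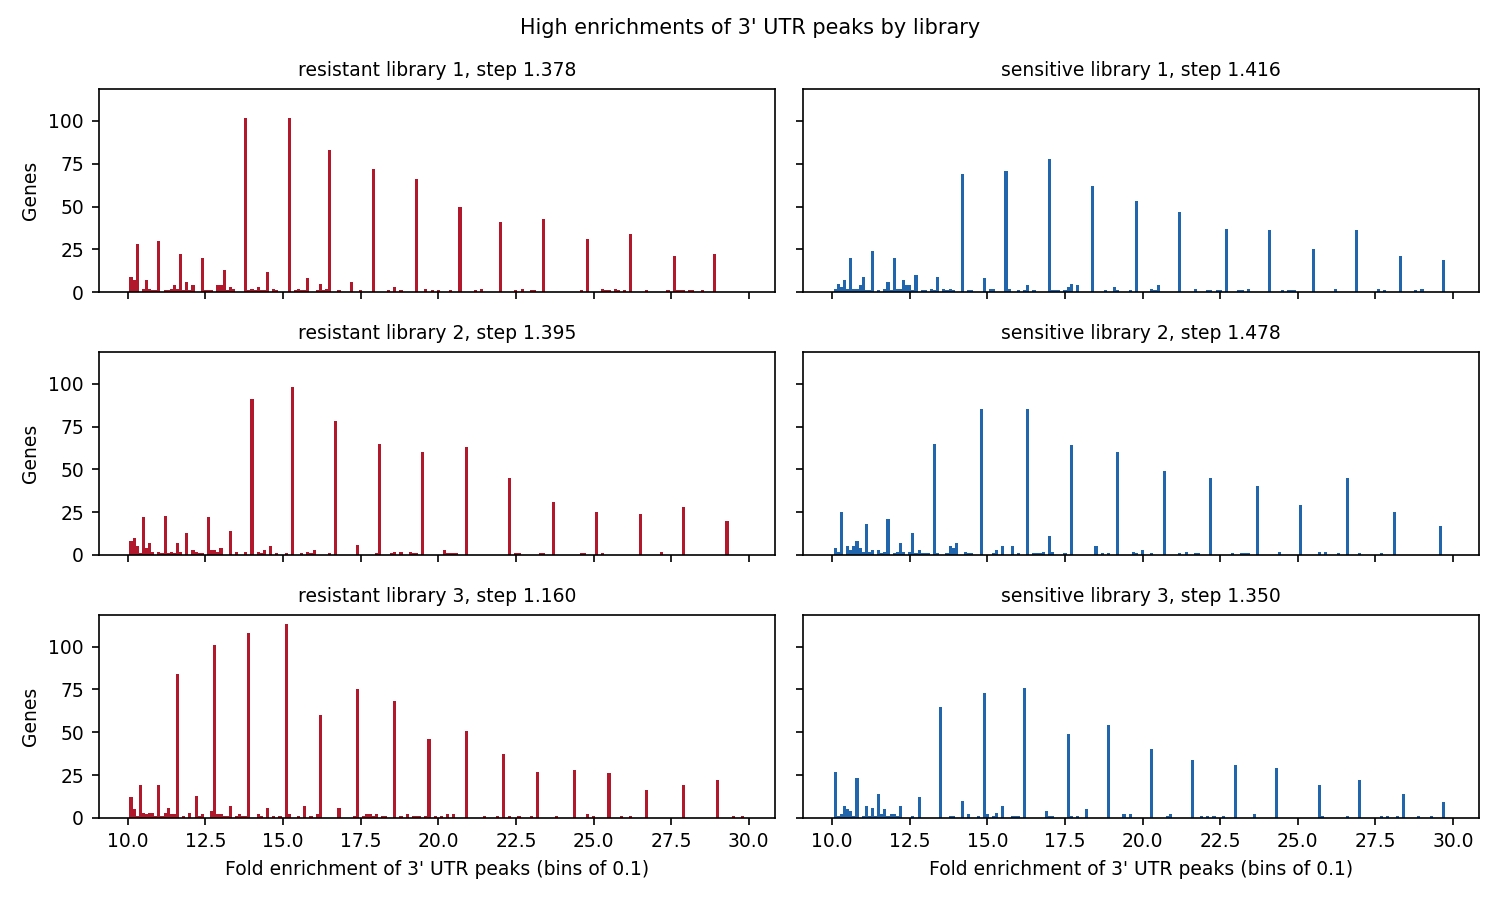
Number of genes (vertical axis) with a 3′ UTR peak at each fold enrichment from above 10 to 30, in bins of 0.1 (horizontal axis), for the 3 resistant libraries on the left and the 3 sensitive libraries on the right. Tall bars stand at regular distances in each library, at steps of 1.16 to 1.478, with few genes between them.

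Fewer 3′ UTR than stop-spanning regions were found again in the other libraries of the line, over peaks of any enrichment. After rows were joined wherever they shared an exonic base on the same strand, 57.7%, 60.4% and 59.6% of the 3′ UTR regions of the resistant libraries were overlapped by a 3′ UTR peak in both other libraries of the line, and 56.5%, 57.3% and 63.3% of those of the sensitive libraries. Stop-spanning regions reached 72.9% ± 3.07 in resistant and 70.5% ± 4.51 in sensitive libraries (SD, n = 3 each), a difference of -12.6 percentage points, negative in 6 of 6 libraries (exact sign-flip permutation test, p = 0.03125). Any shared exonic base counted as an overlap, which can favour the wider stop-spanning regions. The shares of a line are all taken from the same lists, so the libraries are not independent units in the tests of these shares. Among regions with an enrichment of at least 5 it was -2.49 points and did not pass the test (exact sign-flip permutation test, p = 0.1562). Against coding regions the difference was -1.14 points, negative in 4 of 6 libraries (exact sign-flip permutation test, p = 0.3125). With an enrichment of at least 5 the difference from coding regions turned round, to 13.9 points (p = 0.03125 in the same exact test).

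Where a transcript had both a stop-spanning peak and a separate 3′ UTR peak, the median gap between them was 622, 626.5 and 627 genomic bases in the resistant libraries and 569, 597 and 507 in the sensitive libraries. Each resistant library lay above each sensitive one, by 67.5 bases on average (exact permutation test, p = 0.1, the smallest possible). This distance was measured after other values had been seen, and among peaks with an enrichment of at least 5 its sign turned round, to -26.5 bases. Between 33.2% and 38% of these 3′ UTR peaks lay more than 1000 bases from the stop-spanning peak.

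Resistant libraries listed more 3′ UTR regions on more genes. The libraries had 4783, 4564 and 4596 merged 3′ UTR regions in the resistant line, against 4330, 4289 and 3904 in the sensitive line, with no overlap. They lay on 3516, 3422 and 3452 genes in the resistant line and on 3247, 3237 and 3032 in the sensitive line. The differences were 473.3 regions and 291.3 genes (exact permutation test, p = 0.1 for either, the smallest this design gives). The share of all merged regions that lay in the 3′ UTR was 39.2% ± 0.73 in resistant and 39.9% ± 0.35 in sensitive libraries (SD, n = 3 each; exact permutation test, p = 0.3). When every list was cut to the same 26014 peaks of smallest p, the order turned round, to differences of -290.7 regions and -156.7 genes (exact permutation test, p = 0.1 each).

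Across the 6 lists the members joined into 7985 sites on 5312 genes, of 8340 genes with a peak of any class. A site found by many libraries was also broad: the 1841 sites (23.1%) in all 6 libraries had a median of 448 exonic bases, and the 2676 sites (33.5%) in 1 library a median of 91. Their median enrichments were 4.82 and 3.71. Since a site is the union of its peaks, its width grows with the number of libraries. For 1895 sites (23.7%), another isoform placed an overlapping peak outside the 3′ UTR, so the class depends on the transcript there. Of the 5312 genes, 3523 (66.3%) had 1 site, 1183 had 2 sites, and 606 (11.4%) had 3 or more. In 1857 genes (35.0%) the 3′ UTR was the only part with a peak, and 2155 (40.6%) also had a stop-spanning peak. By library, 164 sites stood in all 3 resistant and no sensitive library, and 89 in all 3 sensitive and no resistant library.

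**Figure D3:**
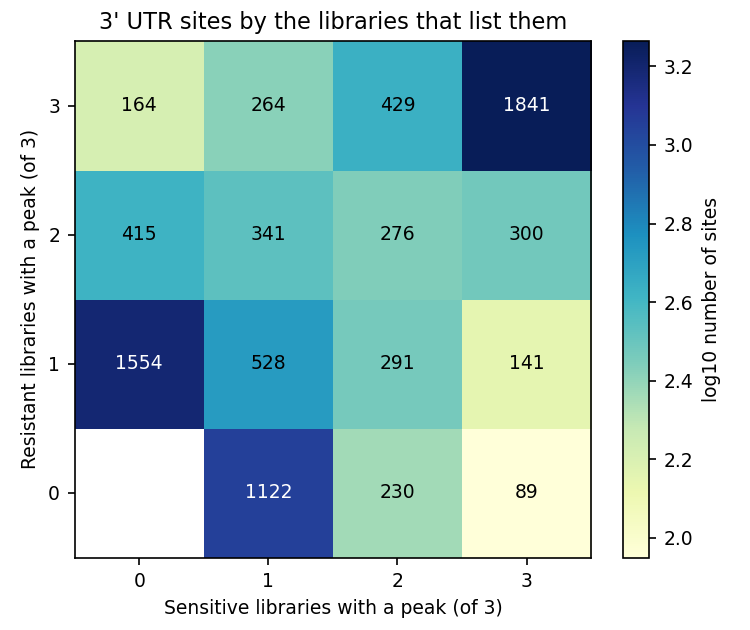
Number of 3′ UTR sites by how many of the 3 resistant libraries (vertical axis) and the 3 sensitive libraries (horizontal axis) list a peak there, coloured by the log10 of the number. The largest cell is that of all 6 libraries, with 1841 sites, followed by sites of 1 library alone.

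Genes with most sites included CFLAR and MUC19, with 11 each, then FOXK1 and MCF2L with 9 and BTBD9 with 8. CFLAR encodes the caspase-8 inhibitor c-FLIP. Its 11 sites covered 3365 exonic bases on chromosome 2 between 202028734 and 202036380, 3 of them in all 6 libraries and 3 in a single library. The longest of these, from 202033745 to 202034973, had enrichments of 5.17, 5.89 and 9.12 in the resistant libraries and 9.06, 6.28 and 8.78 in the sensitive libraries, which overlapped. MUC19, a gel-forming mucin gene, had 11 sites on chromosome 12 between 40879559 and 40884983, and each of the 11 was listed in sensitive libraries alone. Of the sites of FOXK1, a forkhead transcription factor gene, 3 were in all 6 libraries and 3 in resistant libraries alone. MCF2L had 0 of 9 sites in all 6 libraries and 6 in a single one.

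Among sites present in all 6 libraries, 286 (15.5%) had a median enrichment above 20, and the strongest were ranked by that median, which sites of a single line could not enter. ZKSCAN1, a zinc finger transcription factor gene, led with 343, 192 and 272 in the resistant libraries and 276, 424 and 81 in the sensitive libraries (chromosome 7, 99636193 to 99637123). KCTD20, a BTB-domain protein gene, followed with 189, 167 and 218 in the resistant libraries and 246, 263 and 180 in the sensitive libraries (chromosome 6, 36457844 to 36458771). For both genes the ranges of the lines overlapped. MIEF1, which recruits the mitochondrial fission factor DRP1, had a median of 134 over the 6 libraries, NME6, of the nucleoside diphosphate kinase family, 118, and EMP2, a tetraspan membrane protein gene, 117.5. In the authors' deposited table the EMP2 site had a fold of 1.25 (deposited p = 0.00661) and the NME6 site 1.34 (deposited p = 0.196). The NME6 site was annotated to another class in another isoform.

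Libraries of the same line overlapped more in their 3′ UTR bases than did libraries of different lines. Their Jaccard index, the bases covered in both libraries over those covered in either, was 0.525 to 0.530 within the resistant line, 0.514 to 0.527 within the sensitive line, and 0.450 to 0.480 between lines. The mean difference of 0.0542 had p = 0.1 in an exact permutation test over libraries, the smallest possible. Regions found in at least 2 of 3 libraries of a line numbered 4056 in the resistant and 3636 in the sensitive line. Of these, 579 (14.3%, 95% exact Clopper-Pearson interval 13.2 to 15.4) in the resistant and 319 (8.77%, 7.87 to 9.74) in the sensitive line overlapped no 3′ UTR peak of the other. Against a peak of any class of the other line, the shares were 13.1% and 6.08% for 3′ UTR regions, beside 11.5% and 4.95% for regions of all classes. Intervals cover counting error only. With lists of equal length the shares were 10.9% for resistant and 13.4% for sensitive regions, so which line had more depended on list length. Their order also turned when 1 resistant library was left out. The rule changed as well: regions of the shortened line had to be in both remaining libraries. Regions of the other line had only those libraries to miss. The turn therefore mixes the missing library with a changed rule. Without resistant replicate 1, 2 and 3 in turn, the resistant shares were 9.37%, 9.86% and 9.92% and the sensitive shares 12.8%, 12.7% and 12.95%. Without sensitive replicate 1, 2 and 3 in turn, the resistant shares were 19.95%, 19.7% and 18.3% and the sensitive shares 5.78%, 6.08% and 6.02%.

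The authors' comparison of the lines gave most 3′ UTR regions, 72.9%, a fold above 1, that is, higher in resistant cells. That share was no larger than elsewhere: it was 75.1% over all regions, 74.8% for coding and 78.7% for stop-spanning regions. That fold divides resistant by sensitive on a linear scale, and a region was called where its deposited p lay below 0.05 and its fold was at least 1.5 or at most 0.667. In the authors' deposited table, 563 of 5079 3′ UTR regions (11.1%) were called higher and 105 (2.07%) lower. Over all 17290 regions, 9.88% were called higher and 1.71% lower, so the 3′ UTR shares lay near the background. Counted by gene, 326 of 2510 genes with a compared 3′ UTR region (13%) had a region called higher and 61 (2.43%) one called lower, against 14.3% and 2.65% of all 5542 genes with any region compared. As merged regions, 335 of 2899 were called higher and 61 lower, beside 10.5% and 1.92% of merged regions of all classes. The median log2 fold was 0.369 for 3′ UTR regions (quartiles -0.19 and 0.62), 0.312 for coding regions, 0.276 for stop-spanning regions and 0.323 over all regions. Only 5 of the 5079 had a fold within 0.1 of 0 on the log2 scale, and whether the table was filtered on the fold is not given in the sources used here. With every fold divided by the median of all regions compared, 1.25, the split turned to 153 regions higher and 233 lower, and the median log2 fold of 3′ UTR regions became 0.046. Direction is therefore stated with the centre of all compared regions above 1. In the authors' deposited table, 88.6% of the 3′ UTR regions had a fold that also stood, to the digits given, on a region of another gene.

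The calls followed presence in the peak lists, apart from regions with no peak. Of the compared 3′ UTR regions, 1821 overlapped a 3′ UTR peak in more resistant than sensitive libraries, and of these 393 were called higher and 0 lower. The 598 regions with a peak in more sensitive than resistant libraries held 8 called higher and 70 called lower. The 1193 regions with a peak in all 6 libraries held 121 called higher and 21 called lower. A further 1274 regions overlapped no 3′ UTR peak of any library, and 19 of them were called higher and 9 lower. The same pull-down libraries stand behind the lists and the comparison, so the 2 are not independent.

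**Figure D4:**
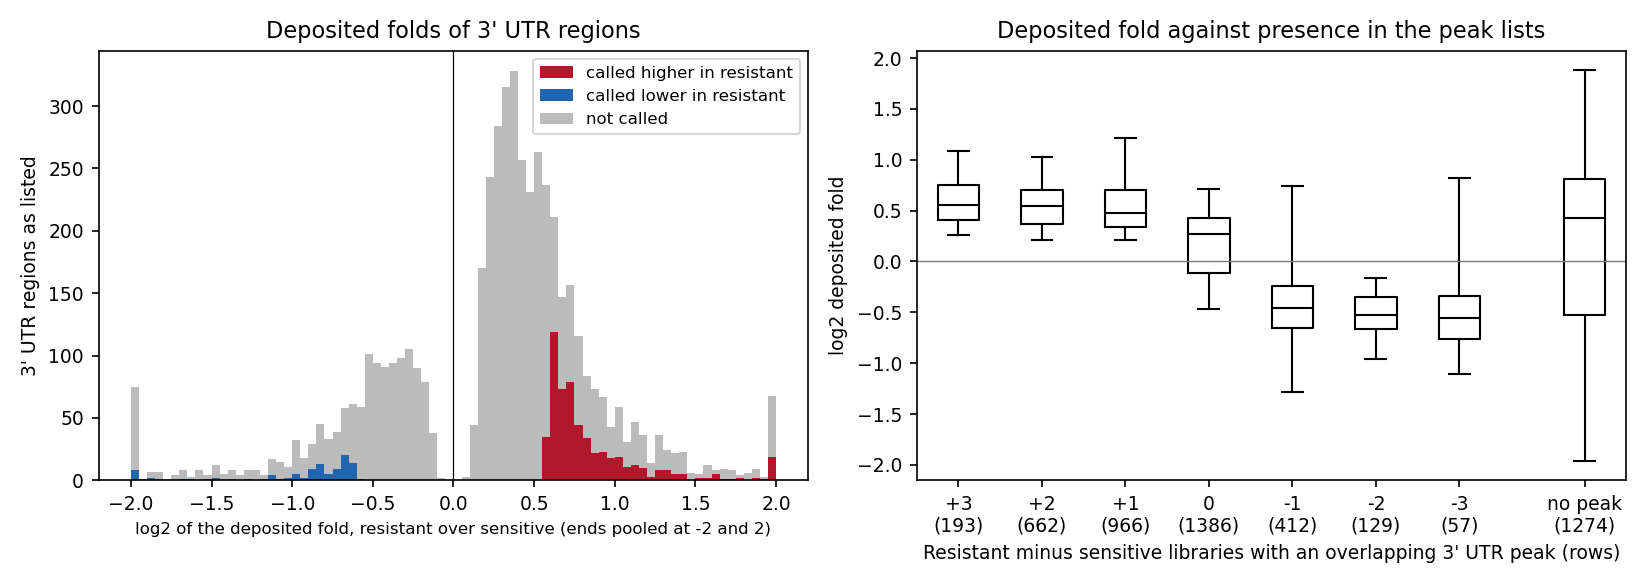
Left, number of 3′ UTR regions by log2 of the authors' deposited fold (resistant over sensitive), with regions called higher in red, called lower in blue and not called in grey; the 5 regions within 0.1 of 0 leave a gap. Right, log2 deposited fold by the number of resistant minus the number of sensitive libraries with an overlapping 3′ UTR peak; boxes are quartiles, whiskers the 5th and 95th percentiles, and brackets give the number of regions, with the 1274 regions without a peak at the far right.

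Among called regions with a peak in at least 2 libraries of the line with the higher value, the largest folds in resistant cells belonged to genes of several kinds. FGD4, encoding an exchange factor of the GTPase CDC42, had enrichments of 20.7 and 13.9 in resistant replicates 1 and 3 and of 14.2 and 14.9 in sensitive replicates 1 and 3, with no peak listed in the other libraries. Presence was thus the same in both lines and the enrichments overlapped. The authors' deposited table nonetheless gave its region (chromosome 12, 32798325 to 32798984) the largest fold of the 8 named, 3.97 (deposited p = 0.00676). MAN2B2, an alpha-mannosidase gene, had 9.65 and 12.8 in resistant replicates 1 and 3 and no peak there in the sensitive line, and the authors' deposited table gave a fold of 3.89 (deposited p = 0.00537). NAPEPLD, the phospholipase D that makes N-acylethanolamines, had 15.3 and 13.9 in resistant replicates 2 and 3 and no peak in the sensitive line, with a fold of 3.43 in the authors' deposited table (deposited p = 0.0269). These 2 genes differ from FGD4 in that only resistant libraries listed the region.

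A peak in all 3 resistant libraries and none of the sensitive line was listed for 3 of the 8 genes, beside 65 of the 563 regions called higher. The 8 had to have a peak in at least 2 resistant libraries, so nothing is read from this count. CNTD2, of the cyclin family, had enrichments of 15.2, 6.98 and 7.54 in the resistant libraries and a fold of 3.10 in the authors' deposited table (deposited p = 0.0347). Another isoform placed an overlapping peak of it in another class. MAPK8IP3, a scaffold protein of JNK signalling and axonal transport, had 6.2, 23.7 and 4.64 and a fold of 2.97 in the authors' deposited table (deposited p = 0.00151). ATP6V0A2, a subunit of the proton pump that acidifies endosomes and Golgi, had 16.5, 15.3 and 16.2 and a fold of 2.73 in the authors' deposited table (deposited p = 0.0112). SDE2, a genome maintenance and splicing protein, had 22, 12.6 and 15.1 in the resistant libraries, against 14.8 in sensitive replicate 2 alone, and a fold of 2.89 in the authors' deposited table (deposited p = 0.00174). The single sensitive value of SDE2 lay within the resistant range. TMEM33, an endoplasmic reticulum membrane protein, had 13.8 and 13.9 in resistant replicates 1 and 3 and no sensitive peak, and a fold of 2.73 in the authors' deposited table (deposited p = 0.0195).

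The largest folds in the other direction were led by MUC19. Its region at chromosome 12, 40879379 to 40880458, had no peak in resistant libraries and enrichments of 15.6, 8.13 and 18.9 in the sensitive libraries, and a fold of 0.104 in the authors' deposited table (deposited p = 0.00214). ABHD11, a mitochondrial hydrolase gene, had 8.27 and 17.4 in resistant replicates 1 and 3 and 17 and 27 in sensitive replicates 1 and 3, with a fold of 0.138 in the authors' deposited table (deposited p = 0.0457). As for FGD4, both lines listed the ABHD11 region in the same number of libraries, and the enrichments overlapped. MESDC2, a chaperone for LDL receptor family proteins, had 4.33 and 4.38 in resistant replicates 1 and 2 and 29.7, 14.8 and 10.1 in the sensitive libraries, and a fold of 0.379 in the authors' deposited table (deposited p = 0.00309). The gene had 2 compared 3′ UTR regions, with a median fold of 1.92, so the other, not called, lay above 1. LRRC27, a leucine-rich repeat protein gene, had 3.83 and 4.06 in resistant replicates 1 and 3 and 8.14, 11.1 and 17.6 in the sensitive libraries, and a fold of 0.476 in the authors' deposited table (deposited p = 0.0275). For both MESDC2 and LRRC27 each listed resistant enrichment lay below each sensitive one, and the LRRC27 region was annotated to another class in another isoform.

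The other 4 regions called lower had a peak in 2 sensitive libraries. PHF14, a PHD-finger chromatin protein gene, had none in the resistant line and 5.38 and 16.3 in sensitive replicates 1 and 2. ENTPD4, a nucleotidase gene of the Golgi, had none in the resistant line and 2.6 and 3.25 in sensitive replicates 1 and 2. The KRAB zinc finger gene ZNF763 had 15.3 in resistant replicate 2 and 14.2 and 8.1 in sensitive replicates 1 and 3. ASAH2B, a relative of the neutral ceramidase gene ASAH2, had 3.86 in resistant replicate 1 and 7.39 and 4.05 in sensitive replicates 2 and 3. Their folds in the authors' deposited table were 0.409 for PHF14, 0.463 for ENTPD4, 0.451 for ZNF763 and 0.490 for ASAH2B. Of 31 enrichments between 10 and 50 given for these 16 genes, 29 lay on a step of their library. With the deposited p adjusted over the whole table by Benjamini-Hochberg, NAPEPLD, CNTD2, TMEM33, ABHD11, PHF14, LRRC27 and ASAH2B had adjusted p-values between 0.0577 and 0.104, and the other 9 stayed below 0.05.

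**Figure D5:**
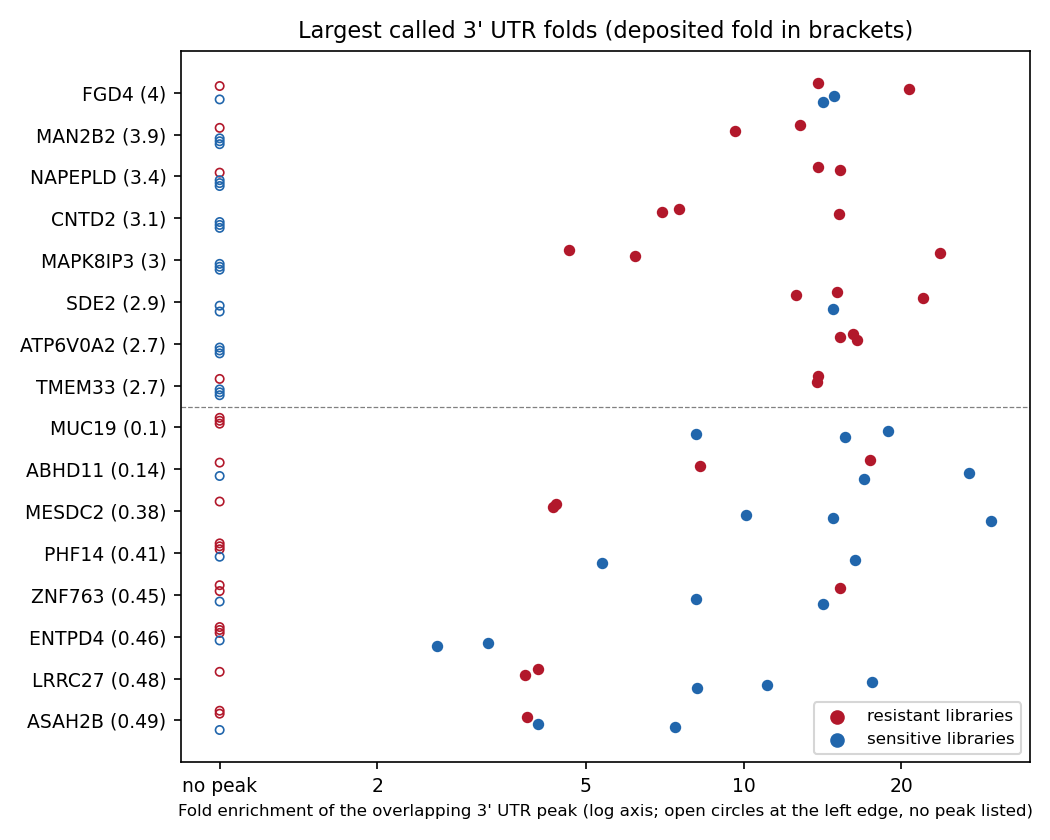
Fold enrichment (horizontal axis, log scale) of the 3′ UTR peak in each library for the 8 regions with the largest deposited fold called higher (upper part) and the 8 called lower (lower part) in resistant cells. Filled circles are peaks of resistant (red) and sensitive (blue) libraries, open circles at the left edge are libraries with no peak listed, and brackets give the deposited fold. FGD4 and ABHD11 have as many filled circles in one line as in the other.

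Separate 3′ UTR regions of a gene did not always lie on the same side of 1. Of 350 genes with at least 2 compared 3′ UTR regions, 143 (40.9%) had folds on both sides of 1, whatever their deposited p. The median range within a gene was 0.56 on the log2 scale. Of all compared 3′ UTR regions as listed, 72.9% had a fold above 1, so regions of unrelated genes would often lie on both sides too. No such share was taken for unrelated regions, so nothing particular to regions of a gene is read from the 40.9%. In 3 genes regions were called in both directions. In the authors' deposited table, MAN2B2 had besides the fold of 3.89 a second region (chromosome 4, 6622602 to 6622931) at 0.558 (deposited p = 0.0447), which had a peak in 1 resistant and 3 sensitive libraries. NSMF, a synapse-to-nucleus messenger gene, had in the authors' deposited table a region on chromosome 9 starting at 140343687 with a fold of 1.53 (deposited p = 0.0224) and another starting at 140342651 with 0.646 (deposited p = 0.0407). The zinc finger gene ZNF587 had in the authors' deposited table folds of 2.07 (deposited p = 0.0380) and 0.503 (deposited p = 0.0427) about 1 kilobase apart on chromosome 19. In 12 genes 2 separate regions were both called higher, among them CPSF2, MAPK8IP3, SDE2, the copper importer SLC31A1 and the Hippo pathway kinase STK4. For SLC31A1 the folds were 1.72 and 2.07, and for STK4 1.55 and 1.64, in the authors' deposited table.

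A 3′ UTR and a coding region were both compared in 462 genes, each taken as the region of its class with the smallest deposited p. In 46 of these the 2 regions shared exonic bases and came from different isoforms of the gene. In the other 416 genes the log2 fold of the 3′ UTR region minus that of the coding region had a median of 0.034 (quartiles -0.40 and 0.44). Of the 416 genes, 54 had the 3′ UTR region called higher, 47 the coding region and 11 both, and in 2 they were called in opposite directions. Among the 97 of them with a deposited p below 0.05 for both regions, 15 had folds on opposite sides of 1. The genes named next had the widest gaps among those with both p-values below 0.05, and wider gaps stood among genes without that limit. In the authors' deposited table, the 3′ UTR region of STK11, the kinase LKB1 that activates AMPK, had a fold of 1.78 (deposited p = 0.0324) and its coding region 0.807 (deposited p = 0.0282). BDH1, the mitochondrial beta-hydroxybutyrate dehydrogenase, had 1.64 (deposited p = 0.0138) in the 3′ UTR and 0.626 (deposited p = 0.00912) in the coding sequence in the authors' deposited table. The gap between 3′ UTR and coding log2 fold was 1.45 in FGD4 and reached 1.28 in PAPOLA and 1.26 in FAM167B, whose regions were all above 1.

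In the opposite order, and with the same limit on both p-values, the widest gap was that of MEGF9, a membrane protein with EGF-like domains, whose 3′ UTR region had a fold of 0.571 (deposited p = 0.00417) and coding region 1.91 (deposited p = 0.0174) in the authors' deposited table. CRAMP1L, the homologue of the fly gene cramped, had 0.676 (deposited p = 0.0468) and 1.93 (deposited p = 0.00813) in the authors' deposited table. TFAP2C, a transcription factor of luminal breast cells, had 0.716 (deposited p = 0.0246) in the 3′ UTR and 1.64 (deposited p = 0.00562) in the coding sequence in the authors' deposited table. KIAA0907 stood at 0.651 (deposited p = 0.0135) against 1.38 (deposited p = 0.0407), and C9orf3, an aminopeptidase gene, at 1.52 (deposited p = 0.0389) against 3.07 (deposited p = 0.0295), in the authors' deposited table. In the first 4 of these 5 genes the 2 regions lay on opposite sides of 1.

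Gene lists were read for called 3′ UTR regions, each beside the 13% of genes called higher and 2.43% called lower among all 2510 genes compared. A gene counted as called where at least 1 isoform row of a 3′ UTR region was called. Cleavage and polyadenylation factors had 3 of 4 compared genes called higher and none lower, with a median log2 fold of 1.19 against 0.369 over all genes. The 3 were CPSF2, a subunit of the cleavage and polyadenylation specificity factor, CPSF6, a subunit of cleavage factor I, and the poly(A) polymerase PAPOLA. CPSF2 had 37.2, 25.1 and 24.4 in the resistant and 6.13, 25.1 and 3.9 in the sensitive libraries, and a fold of 2.03 in the authors' deposited table (deposited p = 0.00562). Sensitive replicate 2 lay at the level of the resistant libraries and the other 2 below it. CPSF6 had a peak of 9.65 in resistant replicate 1 alone and a fold of 2.69 in the authors' deposited table (deposited p = 0.0135). PAPOLA had no resistant peak and 8.02 in sensitive replicate 1, although the authors' deposited table gave a fold of 3.05 (deposited p = 0.0417). Of the 20 factors listed, 8 had a 3′ UTR peak in some library.

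Ubiquitination genes had 3 of 9 compared genes called higher. The p53 ligase MDM2 had a region of 961 bases with enrichments of 20.7, 20.9 and 20.9 in the resistant and 11.3, 20.7 and 16.2 in the sensitive libraries, and a fold of 1.502 in the authors' deposited table (deposited p = 0.00631). Each resistant value of MDM2 was at or above each sensitive one. Of the 5 isoform rows of this MDM2 region, 2 were called. The median fold over the 5 was 1.48, under the fold limit. Its relative MDM4, an inhibitor of p53, had 12.4, 7.67 and 3.81 in the resistant libraries and none in the sensitive line, and a fold of 1.64 in the authors' deposited table (deposited p = 0.0155). TRIM28, a corepressor of KRAB zinc finger proteins, had 2.53 in resistant replicates 2 and 3 and 1.65 in sensitive replicate 3, and a fold of 1.70 in the authors' deposited table (deposited p = 6.31e-12). All 3 enrichments of TRIM28 were below the medians of their lists. PI3K, AKT and mTOR genes had 2 of 9 called higher: the regulatory subunit PIK3R2 at 1.52 (deposited p = 2.57e-06) and the kinase AKT1 at 1.51 (deposited p = 0.00102) in the authors' deposited table. PIK3R2 had 11.8, 14.2 and 22.3 in the resistant and 14.4, 18.5 and 6.52 in the sensitive libraries, which overlapped, and AKT1 2.45 and 1.73 in resistant replicates 1 and 2 and no sensitive peak. AKT1 likewise had 2 of 5 isoform rows called, with a median fold of 1.48 over the 5.

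Epithelial-mesenchymal, chromatin and autophagy lists each had 2 genes called higher, of 5, 8 and 7 compared. ITGB4, the beta subunit of the laminin receptor of hemidesmosomes, had 6.89, 7.67 and 3.12 in the resistant libraries, and the receptor kinase TGFBR1 4.72 and 2.17 in resistant replicates 1 and 2, with no sensitive peak for either. The ITGB4 region was annotated to another class in another isoform. KMT2B, a histone H3 methyltransferase, had 3.33, 2.79 and 2.92 in the resistant line alone, whereas the acetyltransferase EP300 had 4.76, 4.61 and 5.34 in the resistant libraries and 3.75 and 2.79 in sensitive replicates 2 and 3. The lysosomal protease CTSD had 1.98, 2 and 1.71 in the resistant libraries and the ubiquitin-like autophagy protein ATG12 7.58 and 11.6 in resistant replicates 1 and 3, with no sensitive peak. Each of these 6 genes thus had its peaks or its higher values in the resistant lists. The calls that chose these genes rest on the same pull-down libraries, so nothing is read from that. The folds of the 6 genes in the authors' deposited table were 1.80 for ITGB4, 1.51 for TGFBR1, 1.58 for KMT2B, 1.68 for EP300, 1.66 for CTSD and 2.25 for ATG12. For TGFBR1, 1 of 3 isoform rows was called, and the median fold over the 3 was 1.49.

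Single genes were called in 8 other lists described here: 1 of 5 compared hypoxia and stress genes, 1 of 7 Hippo, Wnt and Notch genes, 1 of 6 microRNA pathway genes, 1 of 8 early response genes, 1 of 5 apoptosis genes and 1 of 11 cell cycle genes higher, and 1 of 4 STAT and NF-kB genes and 1 of 5 ERBB receptor and adaptor genes lower. The cell cycle gene was MDM2 again, and MCL1 stood in both the early response and the apoptosis list. VHL, the substrate receptor that marks HIF proteins for degradation, had 66.1, 46 and 23.8 in the resistant and 28.3, 65 and 25.7 in the sensitive libraries, and a fold of 1.87 in the authors' deposited table (deposited p = 7.94e-06). The VHL ranges overlapped. The Wnt pathway transcription factor TCF7L2 had 11.7, 27.9 and 19.7 in the resistant libraries and 10.3 in sensitive replicate 2, and a fold of 2.01 in the authors' deposited table (deposited p = 0.00724), and its region was annotated to another class in another isoform. The Dicer partner TARBP2 and the survival gene MCL1 were called higher at 1.74 and 1.65 in the authors' deposited table, each listed in resistant replicate 3 alone, with enrichments of 3.29 for MCL1 and 3.13 for TARBP2. Called lower were IL6ST, the shared receptor subunit gp130 of interleukin 6 type cytokines, at 0.587 (deposited p = 0.0219), and the adaptor GAB2 at 0.5 (deposited p = 0.0490), in the authors' deposited table. IL6ST had 5.51 in resistant replicate 1 and 4.04, 14.8 and 20.3 in the sensitive libraries, and GAB2 had no 3′ UTR peak at the compared region in any library. The IL6ST region was annotated to another class in another isoform. Of 3 m6A eraser and reader genes, 2 mRNA decay genes, 5 genes of 3′ UTR binding proteins and 7 of glycolysis and lipid synthesis compared, 0 had a called 3′ UTR region, and of 12 m6A writer genes 0 were compared. With the deposited p adjusted over the whole table, PAPOLA, MCL1, GAB2, EP300, MDM4 and IL6ST had adjusted p-values between 0.052 and 0.109. With folds divided by the median over all regions, TARBP2, MCL1, PIK3R2, AKT1, MDM2, TGFBR1, ITGB4, KMT2B, EP300, MDM4, VHL, CTSD and TRIM28 fell below the fold limit, and CPSF2, CPSF6, PAPOLA, TCF7L2 and ATG12 did not.

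ERBB2 had 1 site (chromosome 17, 37884029 to 37884297), annotated to another class in another isoform, with 2.49, 2.2 and 2.31 in the resistant and 2.15, 2.11 and 1.96 in the sensitive libraries. Each resistant value lay above each sensitive one, and all 6 below the medians of their lists. In the authors' deposited table its fold was 1.11 (deposited p = 1.51e-09), under the fold limit, and 0.890 after division by the median of the table. METTL14 had a site on chromosome 4 (119632222 to 119632551) in all 6 libraries, with 16.5, 3.39 and 3.81 in the resistant and 3.72, 3.94 and 13.5 in the sensitive libraries, which overlapped. The demethylase ALKBH5 had 2 sites on chromosome 17. That from 18111745 to 18111999 had 2.35, 1.94 and 1.85 in the resistant libraries and 1.58 in sensitive replicate 3. The compared region, 18112701 to 18112820, had 1.74 and 1.85 in resistant replicates 1 and 3 and no sensitive peak. Its fold in the authors' deposited table was 1.39 (deposited p = 0.0219), under the fold limit. The demethylase FTO had 2 sites on chromosome 16. That from 54147770 to 54148107 had 5.12 and 13.9 in resistant replicates 2 and 3 and 29.6 in sensitive replicate 2. Among readers, YTHDF3 had 2.04, 2.53 and 2.14 in the resistant and 2.6 and 1.67 in sensitive replicates 1 and 3, and YTHDF1 1.59 in sensitive replicate 1 alone. No 3′ UTR peak was listed for YTHDF2, for WTAP, a partner of the methyltransferase complex, or for MYC in any library.

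Genes with a 3′ UTR peak in every library of 1 line and none of the other numbered 106 of 2402 (4.41%) for the resistant and 62 of 2150 (2.88%) for the sensitive line. Of these, 49 and 25 had a peak of another class in the other line, which left 57 (2.37%) and 37 (1.72%) without any peak there. Over peaks of any class, 149 of 5633 genes (2.65%) were of the resistant line only and 70 of 5084 (1.38%) of the sensitive line only. The authors' deposited table compared 67 and 29 of the 106 and 62 genes and called 17 higher among the resistant and 5 lower among the sensitive genes, beside 13% and 2.43% of all genes with a compared 3′ UTR region. The same libraries chose the genes, so nothing is read from these counts. With lists of equal length, 68 genes were of the resistant kind and 95 of the sensitive kind. DNAJC22, a DnaJ family chaperone gene, had by far the highest enrichments among those named, with no 3′ UTR peak in the resistant line and 150, 129 and 109 in the sensitive libraries (chromosome 12, 49745300 to 49745928). Resistant libraries did list a peak of another class on DNAJC22, and another isoform placed an overlapping peak of this site in another class. The other sensitive genes named were NUAK2, an AMPK-related kinase, with 21.2, 22.2 and 21.6, the PCNA-binding factor KIAA0101 with 26.9, 20.7 and 25.7, the secreted glycoprotein LRG1 with 28.3, 26.6 and 20.3, and MUC19 with 28.3, 20.7 and 20.3 as the highest 3′ UTR value in each library.

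On the resistant side, N4BP2, a NEDD4-binding protein, had 22, 27.9 and 17.4, and TERF2, a telomere-binding protein of the shelterin complex, 15.2, 23.7 and 19.7. RAB36, a small GTPase, had 16.5, 18.1 and 16.2 and RTCA, an RNA 3′-terminal phosphate cyclase, 23.4, 15.3 and 18.6, and ATP6V0A2 is given above. These values stood on peaks with modest p-values: no resistant library listed RAB36 or ATP6V0A2 with a p below 1e-05, and 2 listed N4BP2. All 27 enrichments between 10 and 50 of these named genes lay on a step of their library. Genes whose peaks passed a p of 1e-05 in all 3 libraries numbered 17 of the 106 and 9 of the 62. Of the 10 genes named, DNAJC22 was the only one among them. The others included the adaptor GRB7, the peroxiredoxin PRDX2 and the arginine methyltransferase CARM1 on the resistant side and the growth factor TGFB3 on the sensitive side, names chosen after their values were seen.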

How the data were processed

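m6A was profiled by MeRIP-seq in 6 pull-down and 6 input libraries. The submitters' processing notes name HISAT2. Not given in the sources used here are the peak caller, the genome build and the use of replicates in the comparison. Peak lists hold, per the file headers, a fold enrichment (a ratio) and a p-value per peak, both deposited by the authors, with 1 row per transcript isoform. The comparison table holds the authors' ratio of resistant over sensitive and a p-value per region, per the file headers; it holds no value per library, so the count model the design allowed for was not run. Input libraries were not analysed here. Positions were converted to count from 1.

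Rows sharing at least 1 exonic base on a strand were joined. Libraries were compared with exact permutation tests (3 against 3) and exact sign-flip tests over 6 libraries, two-sided, in Python 3.11.15 with pandas 2.3.3 and scipy 1.17.1. The steps in the enrichments were found as the number between 1 and 2, in units of 0.001, whose multiples matched most values between 10 and 50, to within 0.05. Joining was tested on simulated data: with 200 shared sites emptied in 1 line, all 209 expected regions of the other line became line-specific. Members, gene lists and the rule for named genes were chosen with earlier results of these data known. Named were, per direction, the 8 largest called folds with a peak in at least 2 of 3 libraries, the 5 highest-enriched genes of 1 line only and the 5 widest gaps between 3′ UTR and coding folds where both deposited p-values were below 0.05; the 5 genes with most sites and the 5 strongest sites; up to 3 called genes per list; and 10 fixed names. One result that this rule selects is not reported here. Alternatives were a stricter p or fold, equal list lengths, another class left out, each library left out, adjusted p-values and rescaled folds.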

Additional observations from a re-analysis of the deposited data

How the results depend on the processing

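The class contrasts in width, in median enrichment against coding peaks and in enrichments above 20 kept their sign and their exact p under every peak threshold tried. Leaving out 1 library lowers the smallest exact p to 0.0625, so tests then could not pass. Among peaks enriched 5-fold or more, the median of 3′ UTR minus stop-spanning peaks was 3.205 and the share found again against coding regions 13.9 points, both reversed, the share against stop-spanning regions -2.49 (exact p = 0.1562), and the distance from the stop-spanning peak -26.5 bases. With p below 1e-05 the share against coding was -3.69 (exact p = 0.03125), and without regions of another class 1.61. The cause was not tested. With equal list lengths, the resistant minus sensitive differences were -425.7 listed peaks, -290.7 merged regions and -156.7 genes, and line-only shares of 10.85% for resistant and 13.41% for sensitive; genes of 1 line only were then 68 and 95. Line-only shares were 6.09% for resistant and 3.72% for sensitive with 3 of 3 libraries required, 13.07% and 6.08% against a peak of any class, and 10.46% for sensitive with p below 1e-05.

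Leaving out each library in turn, the differences ran from 722 to 1143.5 listed peaks, 338.2 to 551.2 merged regions, 221.3 to 328.8 genes and -1.03 to -0.299 points of 3′ UTR share. Against coding, they ran from 0.269 to 0.315 in median enrichment, -40.2 to -34.6 bases in width, -1.75 to -0.189 points found again and 5.94 to 6.49 points above 20. Against stop-spanning, they ran from -0.28 to -0.242, -188.7 to -182.7 bases, -12.17 to -11.02 points and 4.93 to 5.54 points. The distance ran from 42.2 to 87.2 bases, the Jaccard difference from 0.0474 to 0.0588, and the line-only shares from 9.37% to 19.95% for resistant and 5.78% to 12.95% for sensitive. In a shortened line, line-only regions had to be in both remaining libraries. Regions found again had to be overlapped only in the other remaining library. These ranges therefore mix the missing library with a changed rule.

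Calls higher and lower among 3′ UTR regions numbered 335 and 61 as merged regions, 153 and 233 with folds divided by the table's median, 368 and 42 with adjusted p, and 116 and 29 at a fold of 2. The ERBB2 fold became 0.890 after that division. The percent of genes with at least 2 sites, 33.7%, was 31.97% with gaps of 50 bases joined and 23.7% for sites in at least 2 libraries. Deviations of same-numbered libraries of the lines had correlations of 0.0094, -0.0077 and -0.0219 across sites, and those of differently numbered libraries -0.014 to 0.0216. Whether this measure would detect libraries handled together was not tested, so it does not settle whether the numbers pair them. With a replicate block the differences of 981.3 listed peaks, 473.3 regions and 291.3 genes had an exact p of 0.25, the smallest possible. Depth per library is unknown and limits every count.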

Other observations

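Called 3′ UTR regions were spread over the genome. By merged region, chromosome 12 had the largest share called higher, 24 of 141 (17.02%), followed by chromosome X with 9 of 57 (15.8%), chromosome 19 with 39 of 254 (15.4%) and chromosome 14 with 15 of 99 (15.2%), beside 10.5% of merged regions of all classes. Chromosome 9 had the largest share called lower, 7 of 109 (6.42%), beside 1.92%. The median log2 fold of 3′ UTR regions was highest on chromosome 19, at 0.47. These shares rest on few regions and no test was run.

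The protocadherin gamma genes share their last exons, so that 1 stretch of RNA is listed under many names: a fold of 1.42 in the authors' deposited table stood on 3′ UTR regions of many of these genes, PCDHGA1 and PCDHGC5 among them, and counts by gene include each of them.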
